A study of Mus musculus with 8 samples.

Results

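The circadian clock genes Per1, Per2, Per3, Cry1, Cry2, Nr1d1, Nr1d2, Dbp, Clock and Arntl were followed in mouse Neuro2A (N2A) cells that had been given the cannabinoid receptor agonist HU210. They were selected by symbol, with earlier results of these data known, and they are 10 of the 16980 genes in the expression table. All 10 were listed at every hour and passed the filter on low values, an FPKM of at least 1 in at least 2 libraries, together with 11543 genes in all. FPKM, the unit of all levels here, counts sequenced fragments relative to the length of the transcript and the size of the library.

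N2A is a neuroblastoma line that grows neurites when cannabinoid receptors are stimulated. All groups were kept in serum-free medium with 0.1% bovine serum albumin for 16 h before treatment. The treated groups then received 2 µM HU210 and the controls drug-free DMSO vehicle, and RNA was taken after 2, 4, 6 or 8 h. Each of these 8 conditions is 1 library made from RNA pooled over 2 to 3 experiments, of 1 cell line, so there is no replicate of any condition and no p-value for any single hour.

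The clock of mammalian cells is a feedback loop of transcription. CLOCK pairs with ARNTL (also called BMAL1) and binds E-box elements to switch on the Per, Cry, Nr1d and Dbp genes. PER and CRY proteins return to the nucleus and inhibit that pair, while NR1D1 and NR1D2 (REV-ERBα and REV-ERBβ) bind RORE elements and repress Arntl. DBP is a clock-controlled output factor that acts on D-box elements, and the loop runs in most cultured cells, where a change of medium or serum can set its phase.

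The clock genes that differed most between HU210 and DMSO were Dbp, Nr1d2 and Cry1, and they did so in opposite directions at 4 and 6 h. Dbp stood at 2.61 FPKM with HU210 and 6.80 FPKM with DMSO at 4 h, and at 7.46 and 4.44 FPKM at 6 h. In RNA of whole cultures, fewer cells with a transcript and less of it per cell cannot be told apart. On the FPKM + 1 scale the other 7 genes stayed within 1.3-fold of the DMSO library at all 4 hours. In the fits across the 4 hours, 0 of the 10 genes passed a 5% adjusted p for treatment, for hour or for a difference in the drug response between early and late hours.

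The upstream sequences of the 3 genes that differed most, and of Per1, which is induced in many cells through a cAMP response element (CRE), are shown so that their clock elements can be read. Each window runs from 250 bases before to 50 bases after a start site, is taken from RefSeq (mouse build GRCm38.p6) and is written 5′ to 3′ on the gene's strand. Capitals mark any match, on either strand, to the E-box CACGTG, the RORE core AGGTCA, the D-box TTANGTAA, the CRE TGACGTCA or the CRE core TGACG, which also lies inside the CRE.
Dbp, chr7:45704997-45705296, plus strand: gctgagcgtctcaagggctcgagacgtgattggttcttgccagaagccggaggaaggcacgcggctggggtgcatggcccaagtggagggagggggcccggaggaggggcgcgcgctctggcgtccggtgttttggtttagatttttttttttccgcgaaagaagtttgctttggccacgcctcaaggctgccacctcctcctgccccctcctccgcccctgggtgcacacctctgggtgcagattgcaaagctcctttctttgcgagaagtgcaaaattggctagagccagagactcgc
Nr1d2, chr14:18239057-18239356, minus strand: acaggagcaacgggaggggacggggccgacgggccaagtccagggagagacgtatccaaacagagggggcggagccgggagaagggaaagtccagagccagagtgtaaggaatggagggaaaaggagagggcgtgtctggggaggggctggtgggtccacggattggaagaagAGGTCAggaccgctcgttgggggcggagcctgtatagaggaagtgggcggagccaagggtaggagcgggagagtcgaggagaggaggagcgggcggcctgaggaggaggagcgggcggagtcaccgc
Cry1, chr10:85185005-85185304, minus strand: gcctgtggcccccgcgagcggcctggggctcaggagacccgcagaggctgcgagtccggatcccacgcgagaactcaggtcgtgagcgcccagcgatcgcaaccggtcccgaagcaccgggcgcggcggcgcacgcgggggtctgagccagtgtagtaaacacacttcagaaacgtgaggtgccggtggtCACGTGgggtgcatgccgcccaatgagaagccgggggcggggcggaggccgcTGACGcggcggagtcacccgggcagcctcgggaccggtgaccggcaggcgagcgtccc
Per1, chr11:69098699-69098998, plus strand: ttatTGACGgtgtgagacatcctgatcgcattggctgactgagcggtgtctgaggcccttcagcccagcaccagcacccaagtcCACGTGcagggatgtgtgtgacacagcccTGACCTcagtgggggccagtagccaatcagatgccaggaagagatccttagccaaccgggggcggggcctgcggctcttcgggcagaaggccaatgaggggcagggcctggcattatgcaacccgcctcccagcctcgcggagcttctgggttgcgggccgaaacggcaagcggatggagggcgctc

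The Dbp window held no match. The Nr1d2 window held 1 RORE core, 77 bases before the start. In Cry1 an E-box began 60 bases and a CRE core 8 bases before the start. Per1 carried an E-box at 166 bases, a RORE core on the opposite strand at 137 bases and a CRE core at 246 bases before the start. A second Per1 window of RefSeq, at another start site and not printed, held a CRE core 132 bases before that start.

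RefSeq gave 13 windows for 9 of the 10 genes, and Per2 had none in the table used here. An E-box was found in 2 of the 13 windows, of Per1 and Cry1, and in 7.15% of all 32851 mouse windows of this length. The RORE core was found in 4 of the 13 windows, of Per1, Nr1d2, Clock and Arntl, against 16.3% of all windows, and the CRE core in 4, of which 2 were of Per1 and the others of Cry1 and Cry2, against 20.8%. 1 window, of Per3, carried the D-box at 205 and 158 bases before its start, an element present in 2.32% of windows. The full CRE, present in 1.79% of windows, was in 0 of the 13. These are matches of letters in short windows and say nothing of binding.

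The 8 libraries held 11328 to 11444 genes at an FPKM of at least 1. The neuroblastoma and sympathetic markers Phox2a, Hand2, Gata2, Gata3, Stmn2 and Chga were present in every library at 3.26 FPKM or more. Of 8 markers of fibroblasts, leukocytes and endothelium, 5 were listed, with Cdh5, Cd68 and Col1a1 at 0.530 FPKM or less and Dcn and Pecam1 near 1 FPKM in every library. Over the 11543 genes the median log2 change with HU210 was -0.05, -0.08, 0.06 and 0.04 at 2, 4, 6 and 8 h. At 4 h the 5th and 95th percentiles were -0.72 and 0.49, a wider spread than at the other hours. The change at 4 h also moved with transcript GC content (Spearman's rho = 0.53 across 10749 genes of 1 pair of libraries, against 0.17, -0.30 and -0.15 at 2, 6 and 8 h).

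**Figure D1:**
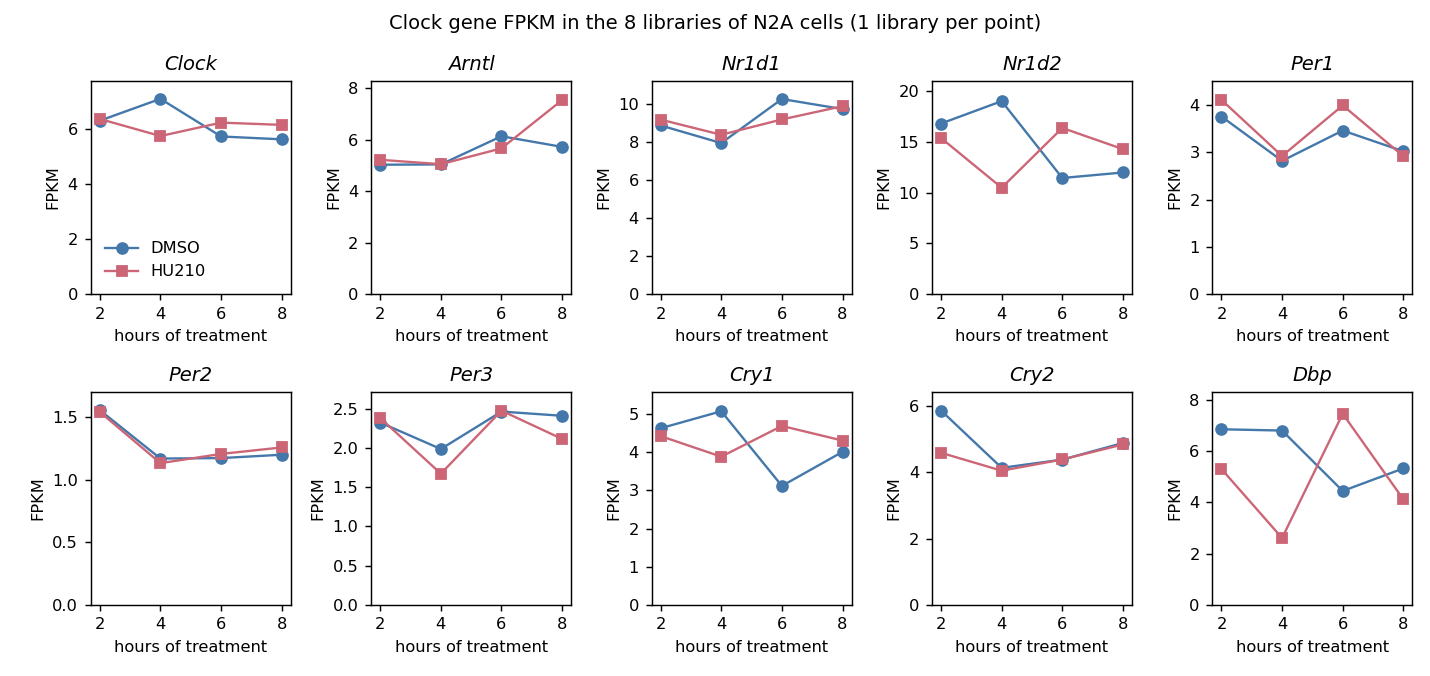
FPKM of the 10 clock genes (y axis, linear and starting at 0) against hours of treatment (x axis), 1 panel per gene, with 1 point per library for DMSO and for HU210. The DMSO and HU210 lines of Dbp cross between 4 and 6 h, with HU210 at 2.61 FPKM at 4 h and 7.46 FPKM at 6 h, while those of Per2 lie together between 1.13 and 1.56 FPKM.

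FPKM is corrected for transcript length, so levels can be set side by side between genes. Nr1d2 was the highest clock gene, at 14.5 ± 2.98 FPKM (mean ± SD over the 8 libraries, which differ in hour and treatment). Nr1d1 followed at 9.16 ± 0.776 FPKM, below Nr1d2 in all 8 libraries. Clock (6.16 ± 0.477), Arntl (5.68 ± 0.856), Dbp (5.36 ± 1.63), Cry2 (4.65 ± 0.579), Cry1 (4.27 ± 0.601) and Per1 (3.38 ± 0.525) came next. Neighbours from Clock down to Per1 overlapped in their ranges, so their order is not fixed by these libraries, although Per1 was below Cry1 in 7 of 8. Per3 (2.23 ± 0.284) and Per2 (1.28 ± 0.170) were the lowest, each below its upper neighbour in all 8 libraries with no overlap of ranges. Against the 11543 genes tested, Nr1d2 had a mean level above 55.5% of them and Per2 above 4.63%.

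Dbp, the D-box output factor (mm9 chr7:52960458-52965525), was listed at 6.85, 6.80, 4.44 and 5.33 FPKM in the DMSO libraries of 2, 4, 6 and 8 h. With HU210 it was listed at 5.30, 2.61, 7.46 and 4.12 FPKM. The 4 h HU210 library was thus the lowest and the 6 h HU210 library the highest of the 8, and the values of the 2 treatments overlapped. The log2 change, on the log2(FPKM + 1) scale as are all changes below, was -0.32, -1.11, 0.64 and -0.31 at the 4 hours. At 4 h 1.12% of the genes tested were as low, and at 6 h 1.46% were as high. Over the HU210 libraries the log2 difference between the highest and lowest hour was 1.23, a span reached by 1.72% of genes, against 0.53 over the DMSO libraries. Exons of Dbp share 491 bp, 16.7% of its exonic bases, with Sphk2 on the opposite strand, and unless the reads were counted by strand they cannot be told apart there. Sphk2 was listed at 8.77, 8.76, 10.6 and 10.4 FPKM in the DMSO libraries of 2, 4, 6 and 8 h. Its HU210 values were 9.09, 10.6, 11.3 and 9.49 FPKM. It was thus above its DMSO value at 2, 4 and 6 h and below it at 8 h. Its difference had the direction of that of Dbp at 6 and 8 h and the opposite direction at 2 and 4 h. The part of Sphk2 reads in the Dbp values was not tested.

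Nr1d2, a haem-binding nuclear receptor that represses RORE targets (mm9 chr14:19036568-19071641), was listed at 16.8, 19.0, 11.5 and 12.0 FPKM in DMSO. Its HU210 values were 15.4, 10.5, 16.4 and 14.3 FPKM. It was therefore below DMSO at 2 and 4 h and above it at 6 and 8 h, with log2 changes of -0.12, -0.80, 0.48 and 0.24. The DMSO libraries themselves spanned 0.69 on the log2 scale, from 11.5 FPKM at 6 h to 19.0 FPKM at 4 h, so the DMSO level was highest where HU210 was lowest. A span past 1.5-fold over the DMSO libraries was found in 15.3% of genes and, among the 10, in Nr1d2; over the HU210 libraries it was found in 12.0% of genes and in Nr1d2 and Dbp.

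Nr1d1, the paralogue of Nr1d2 (mm9 chr11:98629246-98636647), was listed at 8.85, 7.92, 10.2 and 9.71 FPKM in DMSO and at 9.15, 8.36, 9.16 and 9.86 FPKM in HU210. Its drug differences were small, with log2 changes of 0.04, 0.07, -0.14 and 0.02. The 6 and 8 h libraries lay above the 2 and 4 h libraries in both treatments. Nr1d1 exons share 263 bp, 8.42% of its exonic bases, with Thra on the opposite strand, which was listed at 31.6 to 40.1 FPKM, several times the level of Nr1d1.

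Cry1, a repressor of the CLOCK and ARNTL pair (mm9 chr10:84594447-84647799), was listed at 4.63, 5.08, 3.12 and 4.01 FPKM in DMSO and at 4.43, 3.89, 4.69 and 4.31 FPKM in HU210. Its log2 changes of -0.05, -0.31, 0.47 and 0.08 had the signs of those of Nr1d2 at every hour. As in Nr1d2, DMSO was highest at 4 h and lowest at 6 h. Cry2, its paralogue (mm9 chr2:92243803-92274200), was listed at 5.87, 4.14, 4.39 and 4.89 FPKM in DMSO and at 4.59, 4.05, 4.39 and 4.84 FPKM in HU210. Its log2 change was -0.30 at 2 h and -0.02, 0.00 and -0.01 afterwards, and the DMSO library of 2 h was the highest of the 8. Its exons share 295 bp, 4.67% of its exonic bases, with the noncoding gene D930015M05Rik.

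Per1, a clock repressor that also responds to acute signals (mm9 chr11:68908719-68923462), was listed at 3.76, 2.82, 3.47 and 3.03 FPKM in DMSO and at 4.12, 2.93, 4.00 and 2.92 FPKM in HU210. The same course was seen in both treatments, with 2 and 6 h high and 4 and 8 h low. The log2 changes were 0.10, 0.04, 0.16 and -0.04. Per2 (mm9 chr1:93312561-93355907) was listed at 1.56, 1.17, 1.17 and 1.20 FPKM in DMSO and at 1.54, 1.13, 1.21 and 1.26 FPKM in HU210. The pair of libraries of each hour lay close together for Per2, with log2 changes between -0.02 and 0.04. Per1 and Per2 were at their highest at 2 h in both treatments, as were 10.8% of the genes tested.

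Per3, the third Period gene (mm9 chr4:150377761-150418774), was listed at 2.33, 1.99, 2.47 and 2.41 FPKM in DMSO and at 2.38, 1.67, 2.48 and 2.12 FPKM in HU210. The log2 changes were 0.02, -0.16, 0.00 and -0.13. In both treatments 4 h was the lowest hour for Per3, and the same held for Per2, Cry2 and Nr1d1. These 4 of 10 genes compare with 3.85% of the genes tested, a pattern singled out after its values were seen. The HU210 library of 4 h was the lowest of all 8 for 5 of the 10 genes (Per2, Per3, Cry2, Nr1d2 and Dbp), as for 20.3% of the genes tested.

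Clock, which encodes one partner of the activator (mm9 chr5:76639992-76733817), was listed at 6.30, 7.10, 5.73 and 5.62 FPKM in DMSO and at 6.37, 5.74, 6.23 and 6.15 FPKM in HU210. The log2 changes were 0.01, -0.26, 0.10 and 0.11, and the HU210 libraries spanned 0.13 on the log2 scale, the narrowest span of the 10 genes in either treatment. Arntl, which encodes the other (mm9 chr7:120350979-120457636), was listed at 5.03, 5.04, 6.14 and 5.72 FPKM in DMSO and at 5.22, 5.05, 5.67 and 7.55 FPKM in HU210. The 8 h HU210 library was the highest of the 8 for Arntl, with a log2 change of 0.35 that lay just under 1.3-fold. At 2, 4 and 6 h the log2 changes of Arntl were 0.05, 0.00 and -0.10.

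**Figure D2:**
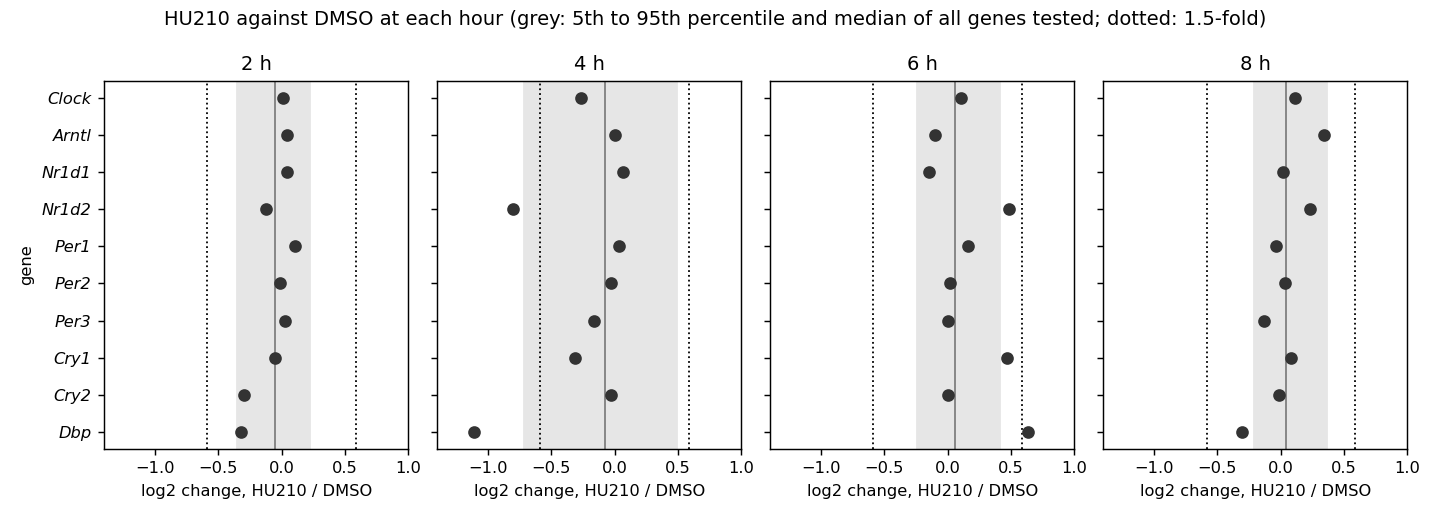
Log2 change of each clock gene (y axis), HU210 against DMSO on the FPKM + 1 scale (x axis), in 1 panel per hour, with 1 point per pair of libraries, no error bar since each condition is 1 library, grey for the median and the 5th to 95th percentile of all genes tested, and dotted lines at 1.5-fold. Dbp at -1.11 and Nr1d2 at -0.80 lie left of the 1.5-fold line at 4 h, and Dbp at 0.64 lies right of it at 6 h.

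Counted by hour, 0 of the 10 genes were past 1.5-fold at 2 h, where 2.20% of the genes tested were. At 4 h 2 of 10 were past 1.5-fold, Dbp and Nr1d2, both lower with HU210, against 11.6% of genes in either direction and 8.72% lower. At 6 h 1 of 10, Dbp, was higher by that much, against 2.68% in either direction and 1.87% higher. At 8 h the count was 0 against 2.08%. With so few genes, a share of 2 or 1 in 10 is not far from the background at 4 h and rests on a single gene at 6 h.

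At the 1.3-fold limit the counts were 0 at 2 h (background 5.78%), 2 lower at 4 h (19.7% lower, 28.8% in either direction), 3 higher at 6 h (6.54% higher, 8.48% in either direction) and 0 at 8 h (6.28%). The 3 at 6 h were Dbp, Nr1d2 and Cry1. Dbp and Nr1d2 were lower by 1.3-fold at 4 h and higher by 1.3-fold at 6 h, a course shared by 4.49% of genes. The median log2 change of the 10 genes was 0.00, -0.09, 0.06 and 0.03 at 2, 4, 6 and 8 h, against -0.05, -0.08, 0.06 and 0.04 over all genes, so the 2 medians lay close together at each hour. HU210 lay below DMSO at 2 and 4 h and above it at 6 and 8 h for 3 of the 10 (Per2, Cry1 and Nr1d2), against 24.8% of genes.

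The size of these differences depended on the reference library. Set against the mean of the 4 DMSO libraries, Dbp was at -0.91 at 4 h and 0.32 at 6 h, Nr1d2 at -0.43 and 0.17, and Cry1 at -0.08 and 0.14. After removing what tracked GC content and transcript length, Dbp (61.7% GC) was at -1.37 at 4 h and Nr1d2 (41.8% GC) at -0.52, under 1.5-fold. Under the same correction Cry1 (51.5% GC) was at -0.34 at 4 h, Clock (41.6% GC) turned from -0.26 to 0.05 and Per1 (59.4% GC) from 0.04 to -0.18. Centring each pair on its median left Dbp at -1.03 and 0.57 and Nr1d2 at -0.72 and 0.42. The direction of the 3 changes past 1.5-fold was kept under all 4 alternatives tried. Of these, a pseudocount of 0.1 cannot turn a sign. Centring could not turn these 3 either, since the pair medians were only -0.08 at 4 h and 0.06 at 6 h. Only removing the GC and length trend or changing the reference could have turned them. All 3 stayed past 1.5-fold with a pseudocount of 0.1. After centring 2 did, without the GC and length trend 2, and against the mean DMSO library 1.

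**Figure D3:**
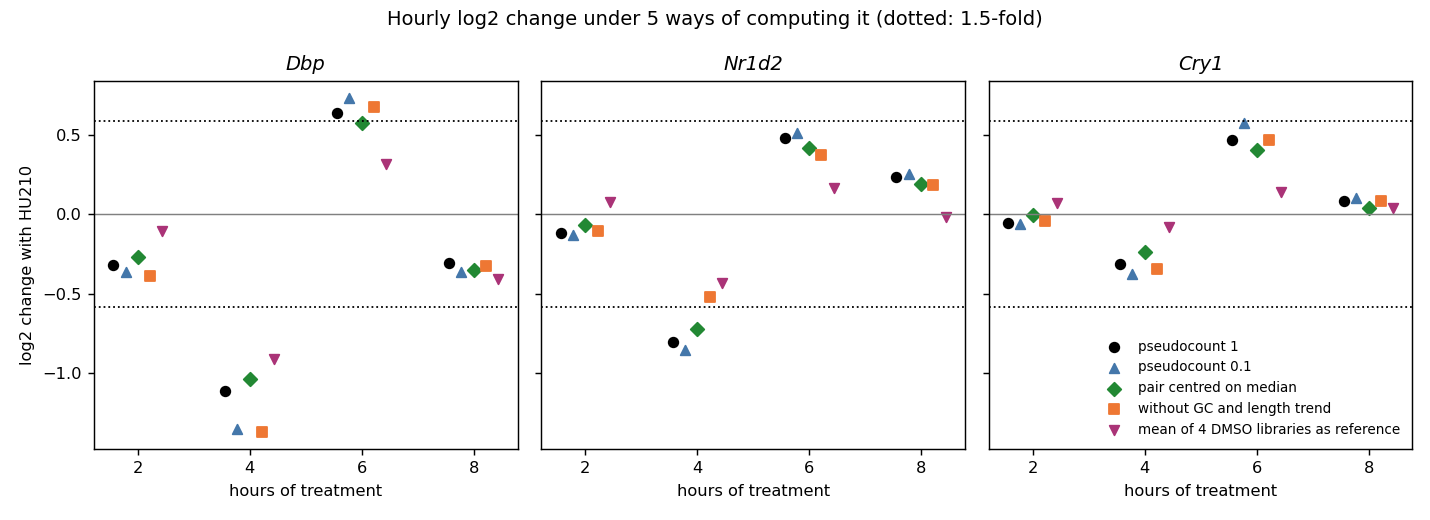
Log2 change of Dbp, Nr1d2 and Cry1 (y axis, 1 panel per gene, HU210 against DMSO) against hours of treatment (x axis), as reported with a pseudocount of 1 and under 4 other ways of computing it, with points of an hour set side by side and dotted lines at 1.5-fold. Dbp at 4 h ranges from -1.37 without the GC and length trend to -0.91 against the mean DMSO library, and at 6 h from 0.32 to 0.73.

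Whether HU210 shifted any clock gene in one direction over the 4 hours was tested with limma, with the hours as pairs. 0 of 11543 genes passed a 5% adjusted p (0.00%), and 155 (1.34%) had an unadjusted p under 0.05, 0 of them clock genes. The largest estimate among the 10 was that of Dbp, -0.28 ± 0.26 (log2 change ± SE), lower in 3 of 4 hours. The others lay between -0.08 for Cry2 and 0.07 for Arntl, all 10 with a limma adjusted p that rounds to 1. In exact permutation tests by sign flips, whose smallest possible 2-sided p is 0.125, the p-values of the 10 genes ran from 0.25 to 1. The residual of this fit holds any drug difference that changes with hour, and for Dbp and Nr1d2 its SD was 0.51 and 0.39, against 0.02 to 0.23 for the other 8 genes.

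Whether the clock genes changed with hour in both treatments was tested in the same fit. 0 of 11543 genes passed a 5% adjusted p (0.00%) for hour, and 707 genes (6.12%) had an unadjusted p under 0.05. Among the 10 genes Per1 had the smallest limma p for hour, 0.038 unadjusted and 0.81 adjusted, with 0.35 on the log2 scale between its highest and lowest hour. For Per2 the residual SD was 0.02, but its hour range was 0.25 and its limma adjusted p was 0.89.

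In the contrast of 6 and 8 h against 2 and 4 h, Arntl was higher late by 0.25 ± 0.09 (log2 difference ± SE) and Nr1d1 by 0.17 ± 0.07. For both genes the late libraries lay above the early ones in each treatment, as in 4.27% of the genes tested. Their limma adjusted p-values were 0.66 and 0.70, with 0 of 11543 genes called (0.00%) and 852 (7.38%) at an unadjusted p under 0.05. In the exact permutation test within treatments both had p = 0.0556, the smallest this design can give. With the hour entered as a number, Arntl had a slope of 0.06 ± 0.02 per hour on the log2 scale (limma adjusted p = 0.36).

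Whether the drug difference itself changed from the early to the late hours was tested as an interaction. In this fit the 2 hours of a period stood as 2 libraries, and HU210 and DMSO were not paired by hour. Nr1d2 had an interaction of 0.82 ± 0.24 (log2 ± SE, limma adjusted p = 0.20), Dbp of 0.88 ± 0.42 (adjusted p = 0.35) and Cry1 of 0.46 ± 0.18 (adjusted p = 0.29). The remaining 7 lay between -0.12 for Nr1d1 and 0.23 for Clock. 0 of the 10 genes and 2 of 11543 (0.0173%) passed a 5% adjusted p, while 1806 genes (15.6%), Nr1d2 and Cry1 among them, had an unadjusted p under 0.05. A limma fit on the hourly differences, added after seeing the data, keeps the pairing. Its unadjusted p was 0.017 for Nr1d2 and 0.058 for Cry1, and without the GC and length trend 0.014 and 0.044. The median interaction over all genes was 0.11 and became -0.03 once each library was centred on its median, so an estimate of about 0.1 is that of the average gene. Leaving out both libraries of 1 hour at a time, the interaction ran from 0.41 without 6 h to 1.35 without 8 h for Dbp, from 0.48 without 4 h to 1.16 without 2 h for Nr1d2, and from 0.27 without 6 h to 0.65 without 8 h for Cry1.

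**Figure D4:**
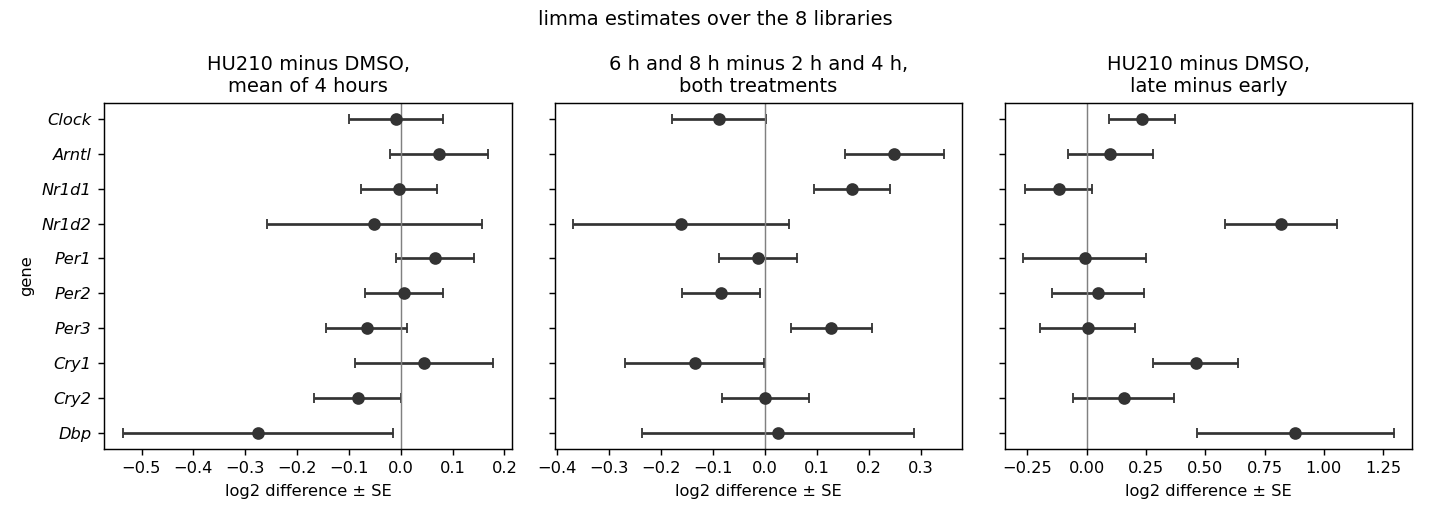
Estimates with standard errors (x axis, log2 scale, with its own range in each panel) for the 10 clock genes (y axis) from 3 limma tests over the 8 libraries: HU210 minus DMSO, late (6 and 8 h) minus early (2 and 4 h), and the change of the drug difference from early to late. Arntl at 0.25 is the highest late-minus-early estimate, Dbp at 0.88 and Nr1d2 at 0.82 are the highest in the last test, and 0 of the 10 genes passed a 5% adjusted p in any of the 3.

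Across the 8 libraries, which share hours, treatments and scaling, Pearson's r between the clock genes is given as a description over 8 points. Over the 45 pairs it ran from -0.64 to 0.92 with a median of 0.26, and 13 pairs were below 0. Among the highest and lowest, Nr1d2 went with Clock (r = 0.92 of log2(FPKM + 1)), Cry1 (0.86) and Dbp (0.82). Nr1d1 went with Arntl (0.74) and ran opposite to Cry1 (-0.64), and the paralogues Nr1d1 and Nr1d2 had r = -0.43. Among all genes tested, those nearest to Dbp were Rab11fip2 (0.988), 2010011I20Rik (0.976) and Scn8a (0.973). For Per1 they were Sap25 (0.961), Tob2 (0.958) and Cyp26b1 (0.957). Rab11fip2 was listed at 2.18 FPKM in the 4 h HU210 library and at 3.05 FPKM in that of 6 h, its lowest and highest values, as for Dbp.

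Of 23 further clock genes, 22 were listed and 19 passed the filter. Npas2, which can replace Clock, and Rora, an activator at RORE elements, were at or under 0.0234 and 0.00593 FPKM in every library, and Usp2 was listed at 4 h alone. The median log2 change of the 19 was -0.06, -0.19, 0.19 and 0.04 at 2, 4, 6 and 8 h, against -0.05, -0.08, 0.06 and 0.04 over all genes. Past 1.5-fold were Hlf, a relative of Dbp, at 2 h (4.51 FPKM in DMSO and 2.66 in HU210, log2 change -0.59) and Wee1, an E-box-driven kinase of the cell cycle, at 4 h (10.2 and 4.75 FPKM, -0.96). At 6 h 0 of the 19 were, and at 8 h 0. Over all genes tested the shares past 1.5-fold were 2.20%, 11.6%, 2.68% and 2.08% at 2, 4, 6 and 8 h. Tef, the other relative of Dbp, was at 19.8 and 17.2 FPKM at 4 h and at 18.5 and 21.4 FPKM at 6 h in DMSO and HU210.

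The 7 listed kinases and ubiquitin ligases that act on PER and CRY proteins were all below DMSO at 4 h, with a median log2 change of -0.26, and all above it at 6 h, with a median of 0.19. Of all genes tested, 58.8% were below DMSO at 4 h and 65.3% above it at 6 h. Csnk1a1, a casein kinase that phosphorylates PER, was listed at 92.9 FPKM in DMSO and 67.3 in HU210 at 4 h, and at 69.4 and 82.4 FPKM at 6 h. Genes past the 1.3-fold limit included Csnk1a1 (-0.46), Csnk1e (-0.40) and Wee1, lower at 4 h, Bhlhe41, higher at 6 h (0.50), and Rorb, lower at 8 h (-0.40). In the limma tests of treatment, hour and their interaction 0 of the 19 passed a 5% adjusted p. The smallest interaction p was that of Csnk1a1, 0.0047 unadjusted and 0.18 adjusted.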

How the data were processed

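Messenger RNA of N2A cells was sequenced by the authors as 8 libraries, 1 per treatment and hour, each pooled over 2 to 3 experiments. According to the labels and the study's methods, the authors aligned reads to mm9 with TopHat2 2.0.8 (Bowtie2 2.1.0, SAMtools 0.1.7) and an Ensembl annotation, and made FPKM with Cufflinks and Cuffdiff (multi-read, fragment-bias and upper-quartile options). The study names a stranded library kit. Whether fragments were counted by strand, and whether the 4 hours shared 1 Cuffdiff run, is not given in the sources used here. The deposited values are FPKM plus 1, from which 1 was subtracted. They hold no read counts, so the number of fragments behind a single value is not given. The study states the reads per library, from which no count per gene was derived here. The authors' fold changes and p-values, and their table of differentially expressed genes, were not used.

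Log2 changes were log2((HU210 + 1)/(DMSO + 1)) per hour, with 1.5-fold and 1.3-fold as limits. Genes listed at all 4 hours with FPKM of at least 1 in at least 2 libraries were tested with limma 3.58.1 (trend; R 4.3.3), hour plus treatment, or treatment by period, with Benjamini-Hochberg adjustment at 5% over 11543 genes. The scripts were tested on simulated data. Single genes were tested by exact permutation (numpy 2.4.6). Since libraries of different hours stand in for replicates, p-values measure spread between these pooled libraries. GC content, length and positions came from an mm9 annotation (GENCODE), with values for 93.1% of genes tested. Alternatives changed the pseudocount, scaling, reference library, filter, variance model, GC and length trend, or left out 1 hour, and 2 fits on hourly differences were added after seeing the data. The clock genes and lists, and the rule to give all 10, the further genes past a limit and the 3 genes most like Per1 and Dbp, were chosen with earlier results of these data known. Values of some listed genes are not reported here.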

Additional observations from a re-analysis of the deposited data

Results flagged for a closer look

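For Per2, Cry1 and Nr1d2 the HU210 library lay below its DMSO library at both 2 and 4 h and above it at both 6 and 8 h, a sign pattern found in 24.8% of the genes tested. The early and late drug differences of these 3 genes differed by 0.046, 0.46 and 0.82 on the log2 scale. In the limma interaction test 0 of the 3 passed a 5% adjusted p (0.93, 0.29 and 0.20), and for Per2 the sign turned to -0.10 once libraries were centred on their medians. With the average of the DMSO libraries as reference, the pattern was lost in all 3: the log2 changes at 2 h were 0.16 for Per2, 0.07 for Cry1 and 0.08 for Nr1d2, those of Per2 at 6 and 8 h were -0.040 and -0.0070, and that of Nr1d2 at 8 h was -0.019. In hourly differences without the GC and length trend, Cry1 differed by 0.47 and Nr1d2 by 0.59 between early and late hours.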

How the results depend on the processing

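Members past 1.3-fold numbered 1 at 2 h without the GC and length trend, 1 at 8 h with a pseudocount of 0.1, and 0 at 6 h and 2 at 8 h against the mean DMSO library. Members past 1.5-fold numbered 1 at 4 h against the mean DMSO library and 1 without the GC and length trend, and at 6 h 0 after centring and 0 against the mean DMSO library. Of all genes, the hour test called 2 without a filter, 4 without the variance trend and 0 to 1 when leaving out each hour. The late-minus-early test called 2 without a filter. The interaction called 0 with a pseudocount of 0.1, 0 with FPKM of at least 1 in all libraries, 7 without a filter, 0 to 1 when leaving out each hour, and 0 in both fits on hourly differences. No clock gene was called in any of these. Estimates that turned sign, all short of the threshold, were Cry2 late minus early (-0.014 centred), the interactions of Per2 (-0.10), Per3 (-0.14) and Arntl (-0.047) centred, and those of Per1 (0.19) and Nr1d1 (0.037) in hourly differences without the GC and length trend. The cause was not tested.

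Leaving out each hour, treatment estimates ran from -0.0036 to 0.017 for Per2, from -0.095 to 0.17 for Cry1, from -0.027 to 0.044 for Nr1d1, from -0.23 to 0.20 for Nr1d2, from -0.58 to 0.0042 for Dbp, from -0.049 to 0.075 for Clock and from -0.017 to 0.13 for Arntl. Late-minus-early estimates ran from -0.19 to 0.16 for Per1, from -0.21 to 0.039 for Per2, from -0.14 to 0.14 for Cry2 and from -0.18 to 0.23 for Dbp. Interactions ran from -0.11 to 0.092 for Per1, from -0.088 to 0.097 for Per3 and from -0.12 to 0.32 for Arntl. Without the 4 h libraries the treatment estimate of Dbp was 0.0042 in place of -0.28.

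With 1 pooled library per condition, no hourly difference has an error, and a drug difference at 1 hour cannot be told apart from a property of its pair of libraries. Read counts per gene were not analysed here, so the counting error of the lower genes, Per2 above all, was not estimated.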

Other observations

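A set of 10 early genes that, like Per1, are induced through CRE or serum response elements was listed in full, and 9 passed the filter (Fosb, at 0.307 to 0.493 FPKM, did not). Their median log2 change with HU210 was 0.24, 0.19, -0.06 and 0.14 at 2, 4, 6 and 8 h, against -0.05, -0.08, 0.06 and 0.04 over all genes. Egr1, an early growth response transcription factor, stood at 18.3 FPKM in DMSO and 36.8 FPKM in HU210 at 2 h and at 27.0 and 19.2 FPKM at 6 h. The early genes were chosen with earlier results of these data known, so their counts are a description and not a test. At 2 h 6 of the 9 were above DMSO and 3 below it, while 36.1% of all genes tested were above. Fos, Junb, Egr1 and Btg2 were higher by 1.3-fold, 4 of 9 genes against 1.72% of all genes tested. Ier2 had a log2 change of 0.24 and Nr4a1 of 0.07. Sik1 (-0.007), Crem (-0.14) and Dusp1 (-0.17) were below DMSO at that hour. Per1 was at 3.76 and 4.12 FPKM in the same libraries, a log2 change of 0.10. At 8 h all 9 were above DMSO, as were 62.4% of all genes tested, and Per1 was at 3.03 and 2.92 FPKM.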
